A study of Arabidopsis thaliana with 12 samples.

Results

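Leaves that had been chilled for 48 h were compared with leaves chilled for 3 h, in Arabidopsis thaliana profiled on Affymetrix ATH1 arrays. The comparison used 8 of the 12 arrays of the series, 4 at 48 h and 4 at 3 h, chosen by the time named in their titles, and the 4 arrays of unchilled plants entered only the estimate of the spread and the levels at 0 h. The 48 h groups were rdm4 and wild type (WT), each with 2 arrays, and the 3 h groups were rdm4 and WT, again with 2 arrays each. Per the labels' protocols, all plants were seedlings 2 weeks old on agar plates of at least 30 plants, kept in days of 16 h of light at 23 °C with nights at 18 °C, and then moved to 4 °C for chilling. RDM4 is a protein that associates with RNA polymerase II and acts in RNA-directed DNA methylation, and its own transcript was not analysed here. Labels conflict in places. The titles call the wild type C24 where other fields have Col, the genotype field of the rdm4 arrays names a 35S::RDM4 construct, and the descriptions of the replicate 2 arrays name treatments that differ from their titles. The question addressed is which transcripts differ between plants chilled for days and plants in their first hours of cold.

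In cold-tolerant plants the first hours of chilling bring a burst of transcription factor genes, among them the CBF factors, which switch on the COR genes that encode cell-protecting proteins. Over the following days the leaf acclimates. Sugars and flavonoids accumulate, photosynthetic capacity is rebalanced against slower carbon use, and the ribosomes and folding machinery are rebuilt for work at low temperature. Leaf transcripts also follow the clock and the light, and 48 h is a whole number of days while 3 h is not, so the arrays at the 2 times may have been taken at different times of day. No unchilled plants were sampled at 3 h or 48 h, so chilling time cannot be told apart from time of day or plant age in any result here.

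The deposited values are log2 signals, and all levels below are on that scale. A difference is the mean log2 signal at 48 h minus that at 3 h with both genotypes weighted equally, so 1 is a 2-fold higher signal at 48 h. It is given ± its standard error (SE) from the fit in limma, a linear model over all probe sets, and it was called when its Benjamini-Hochberg adjusted p was under 0.05. In all, 11779 of 22746 probe sets were called, 51.8%. Of these, 5731 rose (25.2% of all probe sets) and 6048 fell (26.6%). Most differences were small, with a median size of 0.17 against a median SE of 0.060. A called rise of at least 2-fold was found for 755 probe sets (3.32%) and a called fall of that size for 740 (3.25%). In 1389 of these 1495 probe sets the 4 arrays at 48 h did not overlap the 4 at 3 h, against 31.2% of all probe sets. They were chosen by size on the same arrays, so a high share follows largely from the choice. The median difference over all probe sets was 0.0065. The correlation between the 2 arrays of a group, taken over probe sets, was 0.997 to 0.999.

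The genotype labels at 3 h need a caution. NRPC1, which encodes the catalytic subunit of RNA polymerase III, read 6.10 and 6.01 on the rdm4 arrays against 4.36 and 4.32 on the WT arrays at 48 h, and 4.46 and 4.17 on the rdm4 arrays against 6.13 and 6.19 on the WT arrays at 3 h. At 0 h it read 6.29 and 6.18 in rdm4 and 4.43 and 4.50 in WT. The difference between genotypes therefore turned sign at 3 h alone, and RSU1 did the same its rdm4 minus WT difference being 1.67 before chilling, -1.59 at 3 h and 1.82 at 48 h. The arrays at 3 h are for this reason called by their labels. The mean over both genotypes does not depend on which of the 3 h arrays carry which label, and it carries the results below. Signals of RNA integrity controls also differed. The 3′ minus 5′ signal of GAPDH ran from 0.52 to 0.61 at 48 h and from 0.62 to 0.82 at 3 h, that of actin from 0.57 to 0.64 at 48 h and from 0.46 to 0.62 at 3 h, and that of ubiquitin from 1.01 to 1.09 at 48 h and from 0.99 to 1.03 at 3 h. Their part in the results was not tested.

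The flavonoid genes had the highest median difference among the lists described here. Counts below are to be read against the 25.2% of all probe sets that rose and the 26.6% that fell. A gene counts as measured where its name matched a probe set, so the lists and families may lack genes that are on the array. The pathway turns phenylalanine into flavonols and anthocyanins, pigments that absorb light and are known to build up in cold leaves. Of 7 measured genes of the flavonoid list, 6 rose and 1 fell, with a median difference of 1.5, and 5 of the rises were at least 2-fold. UGT78D1, which adds rhamnose to flavonols, read 9.13 and 9.19 on the rdm4 arrays and 8.87 and 8.87 on the WT arrays at 48 h, against 5.69 and 5.62 on the arrays labelled rdm4 and 5.75 and 5.85 on those labelled WT at 3 h. The 2 times lay far apart on every array, and the difference was 3.29 ± 0.05, a 9.77-fold rise (adjusted p = 2.26e-13). At 0 h UGT78D1 had averaged 5.76, against 5.73 at 3 h. CHIL, a chalcone isomerase-like protein that assists the early steps, read 10.87, 10.95, 11.28 and 11.35 at 48 h against 7.98, 7.88, 8.61 and 8.65 at 3 h, in the order rdm4 then WT that also holds for such sets of 4 values below. Its difference was 2.83 ± 0.07, a 7.12-fold rise (adjusted p = 8.92e-12).

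Enzymes of the later, anthocyanin-forming steps moved the same way by smaller amounts. DFR, dihydroflavonol reductase, read 8.88, 9.12, 8.55 and 8.53 at 48 h against 6.78, 6.47, 7.68 and 7.80 at 3 h, a difference of 1.59 ± 0.07. UF3GT, an anthocyanin glycosyltransferase, rose by 1.5 ± 0.05, UGT78D2, which glucosylates flavonols and anthocyanidins, by 1.44 ± 0.05, and AT5MAT, which adds malonyl groups to anthocyanins, by 0.74 ± 0.06. DFR and UF3GT averaged 7.76 and 6.97 at 0 h, higher than the 7.18 and 6.55 at 3 h, so the 2 genes were at their lowest on the 3 h arrays. The exception was CHI, chalcone isomerase, at 6.80, 6.71, 7.29 and 7.20 at 48 h against 8.62, 8.62, 7.31 and 7.24 at 3 h. Only the pair labelled rdm4 at 3 h was high, the 2 times overlapped, and its mean fell by 0.95 ± 0.05 through that pair.

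The factor HYH, a bZIP protein related to HY5 that promotes flavonoid genes in the light, rose with them. It read 10.41, 10.51, 9.65 and 9.71 at 48 h against 7.59, 7.46, 7.59 and 7.69 at 3 h, a difference of 2.48 ± 0.07 (adjusted p = 1.93e-11). Its mean was 4.70 at 0 h, 7.59 at 3 h and 10.07 at 48 h. UGT genes as a family, enzymes that attach sugars to small molecules, were split. Of 47 measured, with UGT78D1 and UGT78D2 among them, 19 rose, 14 fell and 14 were not called, with a median of 0.077. UGT84A1, which makes sugar esters of hydroxycinnamic acids, rose by 2.24 ± 0.07, UGT78D3, which adds arabinose to flavonols, by 3.11 ± 0.12, and UGT87A2 by 1.64 ± 0.06. The 3 h levels of UGT84A1 and UGT78D3 lay among the dimmest 30% of probe sets (below 4.70), so the size of those 2 rises is uncertain. UGT72E1, which glucosylates monolignol aldehydes, fell by 1.64 ± 0.06.

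**Figure D1:**
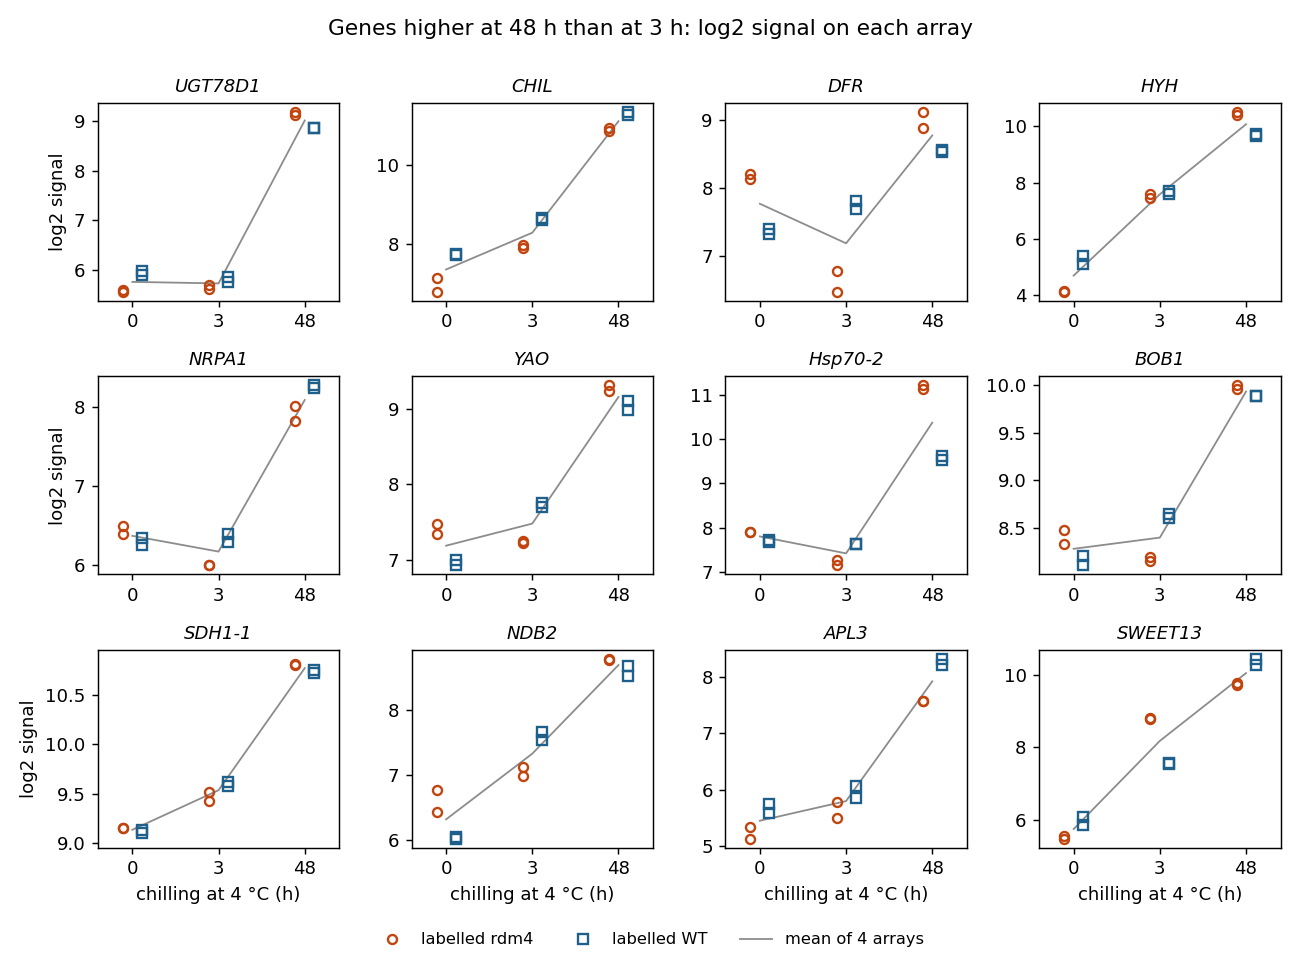
Log2 signal (y axes, one panel per gene, each with its own range) on each array after 0, 3 and 48 h of chilling (x axes), with circles for arrays labelled rdm4, squares for arrays labelled WT and a line through the mean of the 4 arrays at each time. All 12 genes were higher on the 4 arrays at 48 h than on the 4 at 3 h. The mean of HYH climbed at both steps (4.70, 7.59 and 10.07), while that of UGT78D1 was 5.76 at 0 h, 5.73 at 3 h and 9.02 at 48 h.

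Genes for making ribosomal RNA rose together. RNA polymerase I transcribes the large ribosomal RNA precursor in the nucleolus, where processing factors cut and modify it. A list of 9 genes of this role, assembled by function after values had been seen, had 9 rises, 5 of them at least 2-fold, and a median of 1.03. In 9 of the 9 the arrays at 48 h and 3 h did not overlap, against 31.2% of all probe sets. The arrays of each label on their own gave 9 called rises, against 25.2% of all probe sets for rdm4 and 22.2% for WT. Because the list was made with these values known, the counts describe its members and are no test of the role. NRPA1, the largest subunit of RNA polymerase I, read 8.01, 7.83, 8.28 and 8.24 at 48 h against 6.0, 5.99, 6.39 and 6.29 at 3 h, a difference of 1.92 ± 0.06 or 3.79-fold (adjusted p = 2.83e-11). NRPA2, its second-largest subunit, rose by 1.46 ± 0.07. YAO, a nucleolar protein of the processing complex, read 9.31, 9.23, 8.99 and 9.10 at 48 h against 7.24, 7.22, 7.70 and 7.74 at 3 h, a difference of 1.68 ± 0.05. IMP4, another processing factor, rose by 1.19 ± 0.05, the nucleolar RNA helicase PRH75 by 0.61 ± 0.05, and RRP41, a core subunit of the RNA exosome, by 0.39 ± 0.05. NRPA1 averaged 6.37 at 0 h and 6.17 at 3 h, so its rise fell between 3 h and 48 h.

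The wider list of nuclear RNA polymerase subunits had 12 measured members, of which 8 rose, 1 fell and 3 were not called. Besides NRPA1 and NRPA2, NRPB12, a small subunit shared by the polymerases, rose by 0.94 ± 0.06, NRPB9B of polymerase II by 0.88 ± 0.07, and NRPC2, the second-largest subunit of polymerase III, by 0.82 ± 0.06. NRPD7, of the plant-specific polymerase IV, fell by 0.30 ± 0.06, and its 2 times overlapped. NRPC1 had a difference of -0.04 ± 0.06 and was not called. As labelled, its 2 genotypes moved in opposite directions, and the labels at 3 h are in doubt. Among RNA chaperones and helicases, proteins that unwind structured RNA, 5 of 6 rose with a median of 0.52. AT3G09720, on that list as an RNA helicase, rose by 1.27 ± 0.08, RH39 by 0.73 ± 0.09 and AtRZ-1b, a zinc-finger glycine-rich RNA-binding protein, by 0.43 ± 0.06. AtRZ-1c had a difference of 0.12 ± 0.05 and was not called (adjusted p = 0.067).

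Cytosolic chaperone genes were mostly higher at 48 h. HSP70 and HSP90 fold and refold proteins with the help of co-chaperones such as the Hop and Fes1 proteins. Of 14 genes of this role, a list assembled after values had been seen, 10 rose, 3 fell and 1 was not called, with a median of 0.70. Hsp70-2, a cytosolic HSP70, read 11.22, 11.14, 9.62 and 9.53 at 48 h against 7.15, 7.27, 7.63 and 7.63 at 3 h, a difference of 2.96 ± 0.05 or 7.77-fold (adjusted p = 4.4e-13). Every array at 48 h was above every array at 3 h, and the rdm4 pair at 48 h was the higher one. Fes1A, a partner of HSP70, read 9.09, 9.21, 7.57 and 7.70 at 48 h against 6.42, 6.36, 6.24 and 6.37 at 3 h, a difference of 2.04 ± 0.05. BOB1, a small chaperone of the NudC group, rose by 1.53 ± 0.05, the Hop protein Hop2 by 1.36 ± 0.05, Phox3 by 1.03 ± 0.05 and SGT1A, an HSP90 partner, by 1.01 ± 0.06.

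Close relatives in the chaperone list went in opposite directions. Fes1B read 6.53, 6.6, 6.06 and 5.90 at 48 h against 8.78, 8.67, 8.14 and 8.22 at 3 h, and fell by 2.18 ± 0.06, and Fes1C fell by 0.87 ± 0.06, while Fes1A rose. Means of Fes1B were 9.47 at 0 h, 8.46 at 3 h and 6.27 at 48 h. HSA32, a heat-induced protein, fell by 0.27 ± 0.07. SQN, a cyclophilin that works with HSP90, rose by 0.99 ± 0.06 on the probe set with the highest mean, while its second probe set differed by -0.0050 ± 0.052, so its rise rests on 1 of 2 probe sets. The endoplasmic reticulum counterpart was a list of 13 genes of protein folding and quality control, also assembled after values had been seen. It was mixed, with 7 rises, 3 falls and a median of 0.17. BZIP60, the factor of the unfolded protein response, read 10.33, 10.37, 8.88 and 8.98 at 48 h against 8.77, 8.73, 9.03 and 9.08 at 3 h. Only the rdm4 pair at 48 h stood out, the 2 times overlapped, and the difference of 0.74 ± 0.05 came from that pair.

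Mitochondrial respiration genes rose more often than they fell. The tricarboxylic acid cycle and the electron transport chain oxidise the products of sugar breakdown, and plants also have NAD(P)H dehydrogenases that bypass proton pumping. In 17 genes of this role, assembled after values had been seen, 12 rose, 1 fell and 4 were not called, with a median of 0.33. In 6 of the called genes the 2 times did not overlap, while the 31.2% given above counts all probe sets, called or not. NDB2, an external alternative NADH dehydrogenase, read 8.79, 8.77, 8.67 and 8.53 at 48 h against 7.12, 6.99, 7.66 and 7.54 at 3 h, a difference of 1.36 ± 0.07. SDH1-1, the flavoprotein subunit of succinate dehydrogenase, read 10.81, 10.80, 10.75 and 10.72 at 48 h against 9.52, 9.43, 9.62 and 9.58 at 3 h, a difference of 1.23 ± 0.04. The 4 arrays at each time lay close together for SDH1-1. CYTC-2, a cytochrome c gene, rose by 1.06 ± 0.05 and IDH-VI, a subunit of isocitrate dehydrogenase, by 0.84 ± 0.05. CYTC-1, the other cytochrome c gene, differed by 0.30 ± 0.05 and its 2 times overlapped. SDH2-1, counted among the rises at 0.53, had a second probe set at 0.041 ± 0.073 that was not called.

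Sugar transport and starch genes moved in both directions. SWEET proteins let sugars cross membranes down their gradient, SWEET11 to SWEET15 carrying mainly sucrose out of cells and SWEET16 and SWEET17 carrying fructose across the vacuole membrane. Of 14 measured SWEET genes, 5 rose, 2 fell and 7 were not called. SWEET13 read 9.71, 9.77, 10.28 and 10.45 at 48 h against 8.78, 8.82, 7.55 and 7.56 at 3 h, a difference of 1.88 ± 0.06 or 3.67-fold, and its mean climbed from 0 h on (5.74, 8.18 and 10.05). SWEET2, a vacuolar member, rose by 1.78 ± 0.06 and the glucose transporter SWEET1 by 1.46 ± 0.05. SAG29, another name for SWEET15 and not counted among the 14, rose by 1.25 ± 0.06. For SWEET1 the 3 h arrays were split, at 7.89 and 7.94 on those labelled rdm4 and 9.80 and 9.70 on those labelled WT, below the 10.70, 10.73, 9.87 and 9.86 at 48 h. SWEET17 read 7.26, 7.44, 7.18 and 7.35 at 48 h against 8.87, 8.78, 9.01 and 9.03 at 3 h, and fell by 1.62 ± 0.07, and SWEET16 fell by 0.53 ± 0.08. TMT1, a sugar importer of the vacuole, fell by 0.55 ± 0.05, and TMT2 was not called at 0.06 ± 0.04.

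Of 6 starch genes, again grouped after values had been seen, 2 rose, 2 fell and 2 were not called. APL3, a large subunit of ADP-glucose pyrophosphorylase that makes the precursor of starch, read 7.57, 7.58, 8.33 and 8.22 at 48 h against 5.49, 5.77, 5.85 and 6.06 at 3 h, a difference of 2.13 ± 0.08 or 4.38-fold. Its relative APL4 was not called at 0.06 ± 0.05, having averaged 6.70 at 0 h, 7.68 at 3 h and 7.74 at 48 h. DPE1, which recycles maltotriose during starch breakdown, fell by 0.27 ± 0.05 with overlapping times.

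Photosynthesis genes encoded in the nucleus were lower at 48 h. Of 7 measured genes for light-harvesting and photosystem proteins, 7 fell, with a median of -0.41. LHCB4.2, a minor antenna protein of photosystem II, read 10.52, 10.49, 11.38 and 11.24 at 48 h against 12.80, 12.85, 12.41 and 12.35 at 3 h, and fell by 1.70 ± 0.05 or 3.25-fold (adjusted p = 2.82e-11). PSAN of photosystem I fell by 0.50 ± 0.05, PSBY of photosystem II by 0.41 ± 0.04, and LHCB4.1, a second gene for the same antenna protein, by 0.14 ± 0.04, a call lost without WT replicate 1 at either time. Under quantile normalization LHCB4.1 differed by -0.037 (limma, adjusted p = 0.546) and under median centring by -0.099 (adjusted p = 0.0784), neither of them called. In LHCB4.3 the labels opposed each other, with a difference of 0.62 ± 0.07 for rdm4 and -1.38 ± 0.07 for WT. Of 3 carbon fixation genes, phosphoribulokinase PRK fell by 0.44 ± 0.05 and Rubisco activase RCA by 0.23 ± 0.05, while SBPASE was not called at -0.07 ± 0.05. RCA, PSAN and PSBY lay near the highest value on the chilled arrays (14.42), where arrays can compress differences.

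Genes for assembling and regulating the thylakoid also fell. Of 17 such genes, grouped after values had been seen, 12 fell, 1 rose and 4 were not called, with a median of -0.50. TRXF2, a thioredoxin that activates Calvin cycle enzymes in the light, read 7.96, 8.45, 7.86 and 7.89 at 48 h against 10.07, 10.14, 9.48 and 9.47 at 3 h, and fell by 1.75 ± 0.09. PGRL1B, a protein of cyclic electron flow, read 8.34, 8.37, 7.94 and 7.85 at 48 h against 9.31, 9.27, 9.42 and 9.52 at 3 h, and fell by 1.26 ± 0.05. NdhS, a subunit of the chloroplast NADH dehydrogenase-like complex, fell by 0.98 ± 0.05, sulfiredoxin SRX by 0.89 ± 0.06 and PIFI by 0.81 ± 0.05. Only NTRC, a plastid NADPH-thioredoxin reductase, rose in this list, by 0.16 ± 0.05 with overlapping times, and its call was lost when some single arrays were left out.

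In chlorophyll and tetrapyrrole synthesis 8 of 13 genes fell, 2 rose and 3 were not called, with a median of -0.28. CHLM, the methyltransferase that acts on magnesium protoporphyrin, read 10.78, 10.78, 10.32 and 10.28 at 48 h against 11.71, 11.83, 11.81 and 11.88 at 3 h, and fell by 1.27 ± 0.05. HEME1, a uroporphyrinogen decarboxylase, read 9.16, 9.14, 8.76 and 8.76 at 48 h against 10.18, 10.20, 9.91 and 9.93 at 3 h, and fell by 1.1 ± 0.05. PORB, which reduces protochlorophyllide in the light, fell by 0.88 ± 0.04. The 2 rises were small and overlapped between times, at 0.14 ± 0.05 for GSA1 and 0.19 ± 0.07 for HEMA3, and both calls were lost when some single arrays were left out. The list was grouped after values had been seen. Of 69 plastid-encoded genes, 18 fell, 2 rose and 49 were not called, with a median of -0.30. In 15 of the 69 the difference was called and the 2 times did not overlap. That count leaves out genes not called, so it cannot be set against the 31.2% of all probe sets, called or not.

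**Figure D2:**
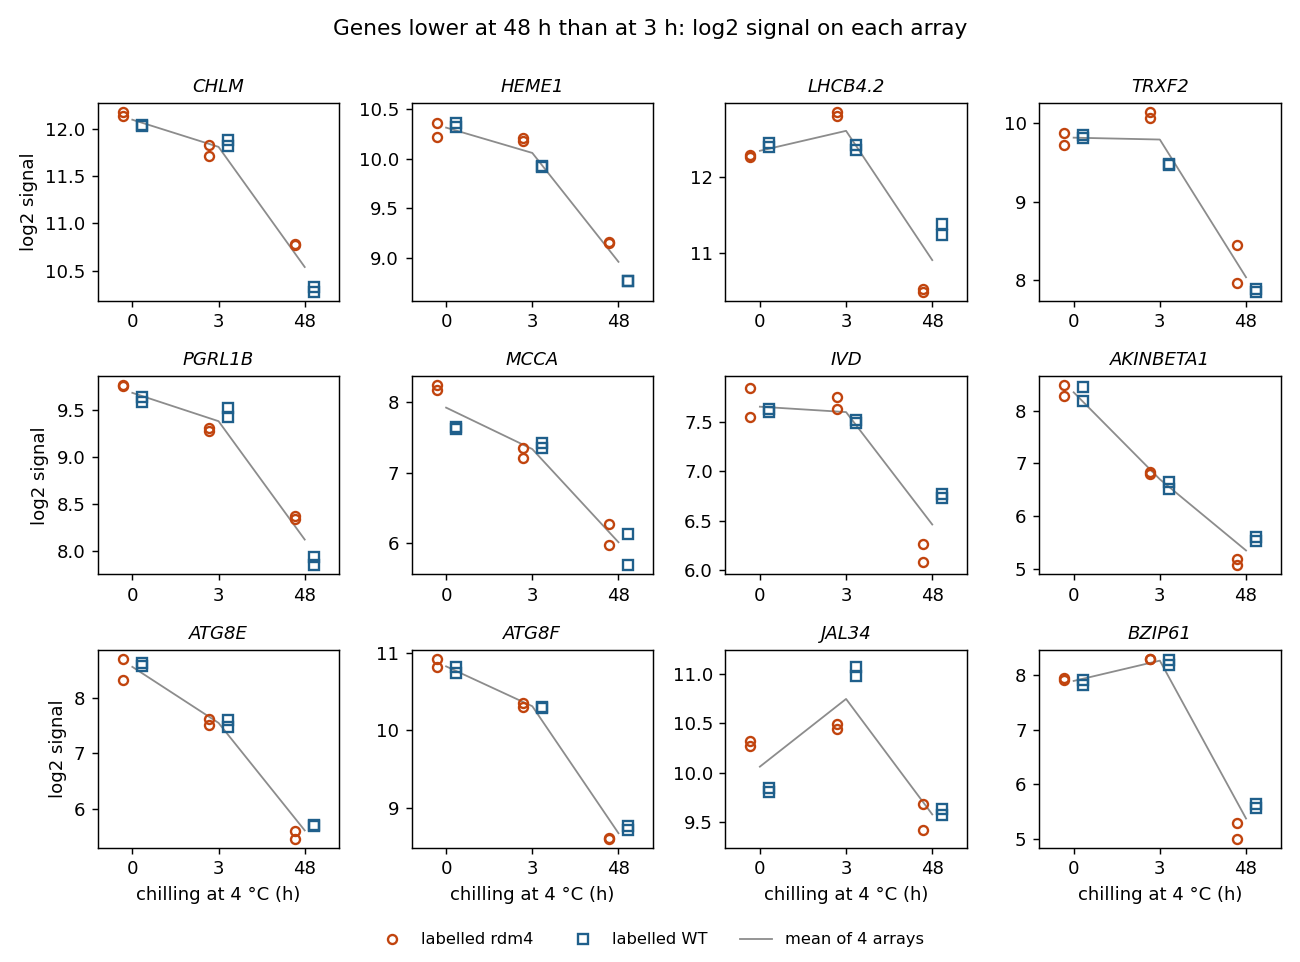
Log2 signal (y axes, one panel per gene, each with its own range) on each array after 0, 3 and 48 h of chilling (x axes), with circles for arrays labelled rdm4, squares for arrays labelled WT and a line through the mean of the 4 arrays at each time. All 12 genes were lower on the 4 arrays at 48 h than on the 4 at 3 h. ATG8E was already lower at 3 h (mean 7.55) than at 0 h (8.56), while LHCB4.2 was a little higher at 3 h (12.60) than at 0 h (12.34).

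Genes that mark dark and sugar starvation fell. When carbon is short, leaves break down branched-chain amino acids to feed electrons into respiration, and the kinase SnRK1 switches such genes on. Of 8 measured genes of the starvation list, 7 fell and 1 rose, with a median of -1.05. The 2 times did not overlap in 8 of them, against 31.2% of all probe sets. AKINBETA1, a regulatory subunit of SnRK1, read 5.07, 5.19, 5.54 and 5.61 at 48 h against 6.80, 6.84, 6.66 and 6.51 at 3 h, and fell by 1.35 ± 0.07. MCCA, a subunit of methylcrotonyl-CoA carboxylase in leucine breakdown, read 6.27, 5.98, 5.69 and 6.13 at 48 h against 7.36, 7.22, 7.41 and 7.35 at 3 h, and fell by 1.32 ± 0.09. IVD, isovaleryl-CoA dehydrogenase, fell by 1.14 ± 0.07 and MCCB, the other carboxylase subunit, by 1.09 ± 0.05. The bZIP factor BZIP53, which acts with SnRK1 in low-energy signalling, fell by 1.02 ± 0.05. PPDK, pyruvate orthophosphate dikinase, was the exception with a rise by 0.46 ± 0.06.

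The electron-transfer flavoprotein pathway, through which leucine breakdown passes its electrons to the respiratory chain, was read through a list of 7 genes grouped after values had been seen that shares MCCA, MCCB, IVD, D2HGDH and ETFQO with the starvation list, so only ETFALPHA and ETFBETA are added by it. Of the 7, 6 fell and 1 was not called, and 5 of those falls are already counted above. D2HGDH, a dehydrogenase for 2-hydroxyglutarate, fell by 0.88 ± 0.06 and ETFQO, the oxidoreductase that receives the electrons, by 0.61 ± 0.06. ETFALPHA fell by 0.20 ± 0.06 with overlapping times, and ETFBETA was not called at -0.11 ± 0.09. At 0 h AKINBETA1 had averaged 8.35, MCCA 7.92 and ETFQO 7.87, so these genes stood highest before chilling.

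Most measured genes of autophagy, nearly all of them ATG8 genes, fell as the starvation genes did. ATG8 proteins coat the membranes that enclose cell material for breakdown in the vacuole. Of 10 measured autophagy genes, 7 fell, 1 rose and 2 were not called, with a median of -0.47. All of them but ATG3 belong to the ATG8 family, so the list does not describe the rest of the pathway. ATG8E read 5.46, 5.59, 5.69 and 5.70 at 48 h against 7.62, 7.50, 7.60 and 7.47 at 3 h, and fell by 1.94 ± 0.08 or 3.84-fold (adjusted p = 3.78e-10). ATG8F read 8.61, 8.60, 8.71 and 8.76 at 48 h against 10.31, 10.36, 10.29 and 10.30 at 3 h, and fell by 1.64 ± 0.05. ATG8C fell by 1.54 ± 0.09. Other members of the same family behaved differently. ATG8H rose by 0.24 ± 0.06 with overlapping times, and APG8A and ATG8B were not called, at -0.09 ± 0.07 and 0.19 ± 0.08.

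**Figure D3:**
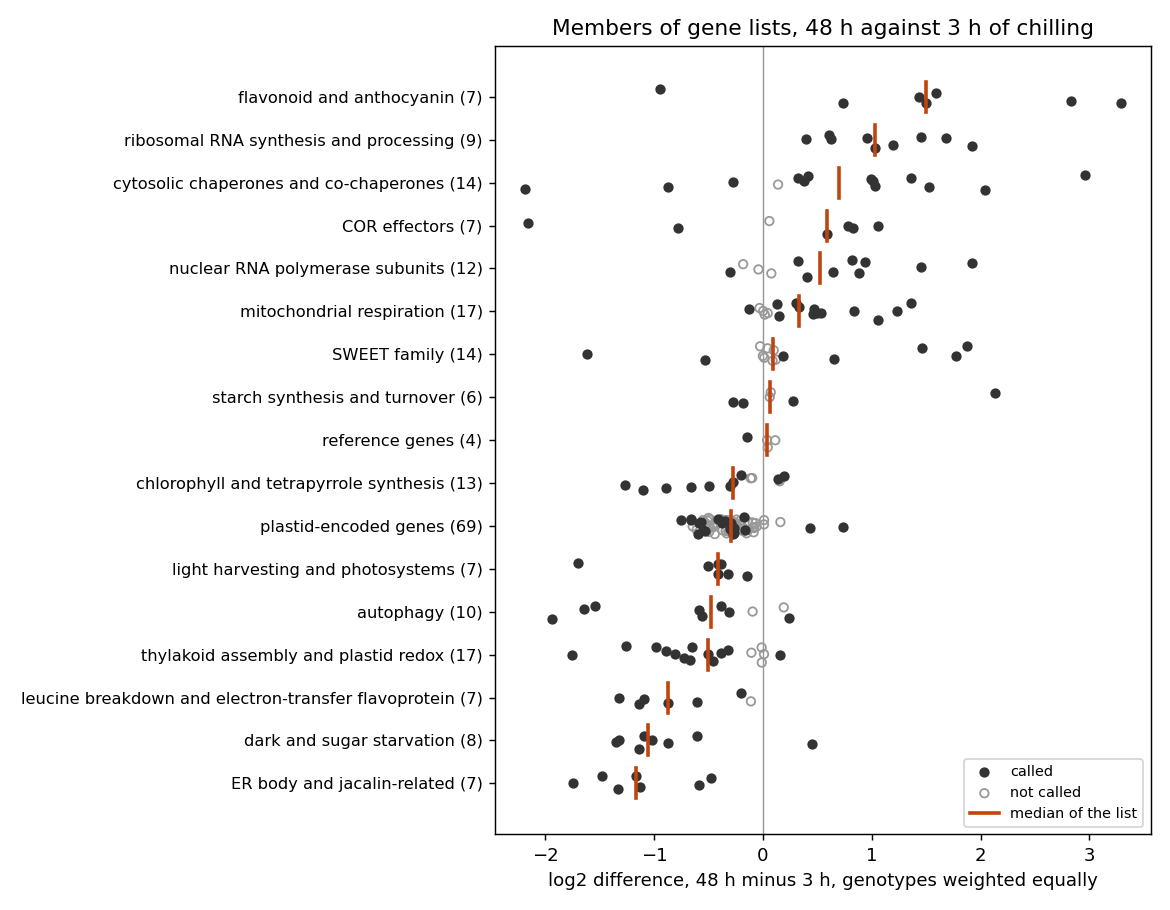
Difference in log2 signal, 48 h minus 3 h with genotypes weighted equally (x axis), for each measured member of 17 gene lists (rows, number of members in brackets), ordered by median. Filled points were called, open points were not, and the red bar is the list's median, from -1.17 for the ER body and jacalin-related genes to 1.5 for the flavonoid genes.

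Genes of the ER body, a store of defence β-glucosidases in Brassicaceae seedlings, and of the jacalin-related lectins that assemble with it were lower at 48 h. In a list of 7, grouped after values had been seen, 7 fell with a median of -1.17. By label the median was -0.43 for rdm4, with 5 called falls, and -1.94 for WT, with 7. JAL34, a jacalin-related lectin, read 9.42, 9.69, 9.63 and 9.57 at 48 h against 10.49, 10.44, 11.06 and 10.98 at 3 h, and fell by 1.17 ± 0.06. JAL22 and JAL33 fell by 1.48 ± 0.06 and 1.33 ± 0.05. NAI2, needed to form ER bodies, fell by 1.12 ± 0.05, and PYK10, their main β-glucosidase, by 0.58 ± 0.05. For NAI2 the 3 h arrays were far apart, at 7.16 and 7.09 on those labelled rdm4 and 8.76 and 8.73 on those labelled WT, against 7.01, 6.88, 6.62 and 6.74 at 48 h. JAL23 overlapped between times, and fell by 1.74 ± 0.10. PYK10 is also a root marker. Of 5 root markers 2 fell, PYK10 and AT5G17820 (by 0.16 ± 0.05, a call lost under quantile normalization and median centring). A further 3 were not called, among them EXPA7 at 0.02 ± 0.06, and the part of root tissue in the ER body result was not tested. GTR1, a glucosinolate transporter, fell by 1.29 ± 0.05, and was named after its value was seen.

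The bZIP factor BZIP61 had the largest fall among genes with a symbol that pass the naming rule. It read 5.30, 5.01, 5.64 and 5.57 at 48 h against 8.29, 8.29, 8.27 and 8.19 at 3 h, and fell by 2.88 ± 0.06 or 7.37-fold (adjusted p = 3.94e-12). BZIP34 fell by 2.19 ± 0.07, with means of 5.46 at 0 h, 7.19 at 3 h and 5.0 at 48 h, so the 3 h arrays held its highest level. HIS1-3, a linker histone variant induced by drought, read 6.17, 5.97, 6.75 and 6.73 at 48 h against 9.0, 8.96, 8.57 and 8.36 at 3 h, and fell by 2.32 ± 0.06. Other histone genes moved less, with HON4 lower by 0.53 ± 0.06 and HTB2 and HTR12 not called at -0.12 ± 0.06 and 0.09 ± 0.07. SDP1, a lipase that breaks down stored oil, fell by 1.59 ± 0.12 and was named after its value was seen.

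Cell wall loosening genes showed no common direction. Expansins and XTH enzymes loosen or remodel the wall as cells grow. Of 17 measured, 7 rose, 5 fell and 5 were not called. EXPA8 read 4.68, 5.18, 5.74 and 5.27 at 48 h against 7.92, 7.93, 7.81 and 7.81 at 3 h, and fell by 2.65 ± 0.11 or 6.28-fold. Its mean was 9.54 at 0 h. EXPB1 fell by 1.03 ± 0.09. EXPA15 rose by 0.82 ± 0.06 and XTH20 by 1.11 ± 0.06. XTH18 read 9.74, 9.78, 5.57 and 5.70 at 48 h against 4.64, 4.93, 7.56 and 7.58 at 3 h, and EXLA1 read 7.81, 7.99, 6.03 and 6.10 at 48 h against 7.51, 7.48, 9.61 and 9.64 at 3 h. Both overlapped between times. As the arrays are labelled, the called mean differences of 1.52 ± 0.09 for XTH18 and -1.58 ± 0.05 for EXLA1 describe neither label. The labels at 3 h are in doubt, so this holds only as labelled. XTH19 was like XTH18 and EXLA1, with a mean difference of -0.51 ± 0.08.

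In 3 enzyme families described here, more members fell than rose. Of 24 measured cytochrome P450 genes, 11 fell, 1 rose and 12 were not called, with a median of -0.17. CYP71B24 fell by 2.36 ± 0.06 to a level among the dimmest 30% at 48 h, so the size is uncertain, CYP71B5 fell by 1.29 ± 0.10 and CYP78A9 by 1.07 ± 0.10. Of 20 measured BGLU β-glucosidases, 8 fell, 1 rose and 11 were not called, and BGLU40 fell by 1.90 ± 0.06. All 8 measured aldehyde dehydrogenase genes were called, 7 lower and 1 higher, with a median of -0.27. ALDH22A1 fell by 0.64 ± 0.05 and ALDH2C4 rose by 0.23 ± 0.05. The serine carboxypeptidase-like gene scpl31 fell by 2.31 ± 0.09 to a level among the dimmest 30%.

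The cold-regulated effector genes did not move as a group between the 2 times. Of 7 measured, 4 rose, 2 fell and 1 was not called, with a median of 0.59. COR15A, a chloroplast protein that protects membranes in freezing, read 13.61, 13.60, 14.05 and 14.06 at 48 h against 13.43, 13.39, 12.07 and 12.22 at 3 h, a rise by 1.05 ± 0.06. The rdm4 label alone gave 0.20 ± 0.08, which was not called (adjusted p = 0.054), and the WT label 1.91 ± 0.08. COR15B, its tandem copy, read 13.13, 13.12, 13.56 and 13.53 at 48 h against 13.28, 13.20, 12.29 and 12.21 at 3 h, and the 2 sequences are alike enough that their probe sets may share signal. LTI30, a dehydrin, rose by 0.78 ± 0.06, with means of 8.84 at 0 h, 11.85 at 3 h and 12.62 at 48 h. COR47, another dehydrin, was not called at 0.06 ± 0.05, after 11.35 at 0 h and 12.88 at 3 h. AT4G33980, listed with the COR genes, read 8.99, 8.98, 9.54 and 9.44 at 48 h against 11.92, 11.91, 10.91 and 10.84 at 3 h, and fell by 2.16 ± 0.05. COR27, a cold-induced gene tied to the clock, fell by 0.78 ± 0.05. COR15A and COR15B lie near the top of the scale, where a rise can be understated.

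Of 5 early stress factors, 2 rose, 1 fell and 2 were not called, with 3 rises and 0 falls on the arrays labelled rdm4 and 0 rises and 2 falls on those labelled WT. Of 6 genes of the calcium and touch list, 4 rose and 2 fell, with 5 rises and 0 falls for rdm4 and 1 rise and 3 falls for WT. That list holds JMT, a gene of jasmonate metabolism, besides calmodulin-like genes. JMT is among the 4 rises and was the 1 rise for WT. STZ, a zinc-finger repressor, read 10.12, 10.12, 7.83 and 7.94 at 48 h against 9.51, 9.52, 9.98 and 10.04 at 3 h, so only the WT pair at 48 h was low, and the mean fell by 0.76 ± 0.05. WRKY53 read 6.77, 7.16, 4.33 and 4.13 at 48 h against 4.07, 4.26, 4.19 and 4.21 at 3 h, where only the rdm4 pair at 48 h was above the dimmest 30%. CML37, a calmodulin-like protein, had the same shape, at 6.54, 6.6, 3.65 and 3.78 at 48 h against 3.59, 3.70, 3.67 and 3.63 at 3 h. The mean differences of 1.41 ± 0.08 for WRKY53 and 1.49 ± 0.05 for CML37 come from those 2 arrays. JMT, which makes methyl jasmonate, rose by 1.4 ± 0.11 from a level among the dimmest 30% at 3 h. ORA47 was not called at -0.21 ± 0.08 (adjusted p = 0.0503), its means being 6.68 at 0 h, 5.12 at 3 h and 4.92 at 48 h.

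Clock-linked and hormone genes gave single results. GI, an evening clock gene, was not called at 0.07 ± 0.05, with the labels in opposite directions at -0.53 ± 0.07 for rdm4 and 0.67 ± 0.07 for WT. CCR2, a clock-regulated RNA-binding protein, rose by 0.42 ± 0.11 with overlapping times. CCL fell by 1.72 ± 0.05, reading 9.70, 9.79, 11.37 and 11.39 at 48 h against 12.63, 12.67, 11.93 and 11.87 at 3 h, and was named after its value was seen. Of the 3 gibberellin receptors, GID1C fell by 1.07 ± 0.06 and GID1A by 0.89 ± 0.06, while GID1B rose by 0.71 ± 0.07. Of 7 auxin response genes, 2 fell, GH3.3 by 0.33 ± 0.08 and WES1 by 0.28 ± 0.06, and 5 were not called. Among genes of antioxidant metabolism, stromal ascorbate peroxidase SAPX rose by 0.92 ± 0.05 and glutathione reductase GR1 by 0.72 ± 0.05, while VTC4, an enzyme of ascorbate synthesis, fell by 1.07 ± 0.05 and glutathione reductase GR was not called at 0.02 ± 0.05.

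Many of the largest differences belonged to genes known here by locus tag alone. AT5G51440 read 9.58, 9.61, 7.04 and 7.25 at 48 h against 3.99, 4.2, 5.07 and 5.25 at 3 h, a rise by 3.74 ± 0.07 whose size is uncertain because the 3 h level was among the dimmest 30%. AT3G09440 read 12.74, 12.71, 12.48 and 12.49 at 48 h against 10.23, 10.18, 9.98 and 9.96 at 3 h, a rise by 2.52 ± 0.04 or 5.74-fold. AT5G62210 rose by 2.92 ± 0.07, AT1G06000 by 2.73 ± 0.05 and AT1G80130 by 2.6 ± 0.05. AT1G51400 read 9.27, 9.47, 8.79 and 8.76 at 48 h against 12.75, 12.72, 12.11 and 12.05 at 3 h, and fell by 3.34 ± 0.05 or 10.1-fold. AT1G70420 read 7.61, 7.89, 7.87 and 7.86 at 48 h against 11.03, 11.10, 10.71 and 10.74 at 3 h, and fell by 3.09 ± 0.06, and its mean of 7.89 at 0 h shows a level high at 3 h alone. AT5G18600 fell by 3.02 ± 0.07 and AT3G28270 by 2.98 ± 0.06.

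Of the 5 root markers described above, 2 fell, PYK10 by the most. Of 5 guard cell and epidermis markers, 1 rose and 4 were not called, between -0.06 and 0.38. The 4 reference genes measured gave 1 fall and 3 genes not called, among them GAPC2 at 0.05 ± 0.04. AT5G46630 fell by 0.15 ± 0.06, a call lost under median centring. The mesophyll gene RCA read 13.69, 13.69, 13.77 and 13.69 at 48 h against 13.94, 13.99, 13.94 and 13.89 at 3 h, bright on every array of these leaf samples. In whole leaves, fewer cells of a type and less RNA per cell cannot be told apart.

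Split by genotype label, 11680 probe sets were called for rdm4 (51.3%) and 10303 for WT (45.3%). Both labels were called in the same direction for 5261 probe sets (23.1%) and in opposite directions for 2105 (9.25%). The difference between the labels was called for 9657 probe sets (42.5%), and was at least 2-fold for 2229 of them (9.8%). Among the 1495 probe sets called with at least 2-fold in the mean, 1372 were called in the same direction under each label and 32 in opposite directions. Choosing them by that mean favours labels that agree, so these counts do not test agreement. The difference between labels was called for 1087 of the 1495. NRPA1 rose by 1.93 ± 0.08 for rdm4 and 1.92 ± 0.08 for WT, and ATG8F differed by -1.73 ± 0.07 for rdm4 and -1.56 ± 0.07 for WT. Because the genotype difference of NRPC1 turns at 3 h, the label-wise values are descriptions of the labelled arrays.

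**Figure D4:**
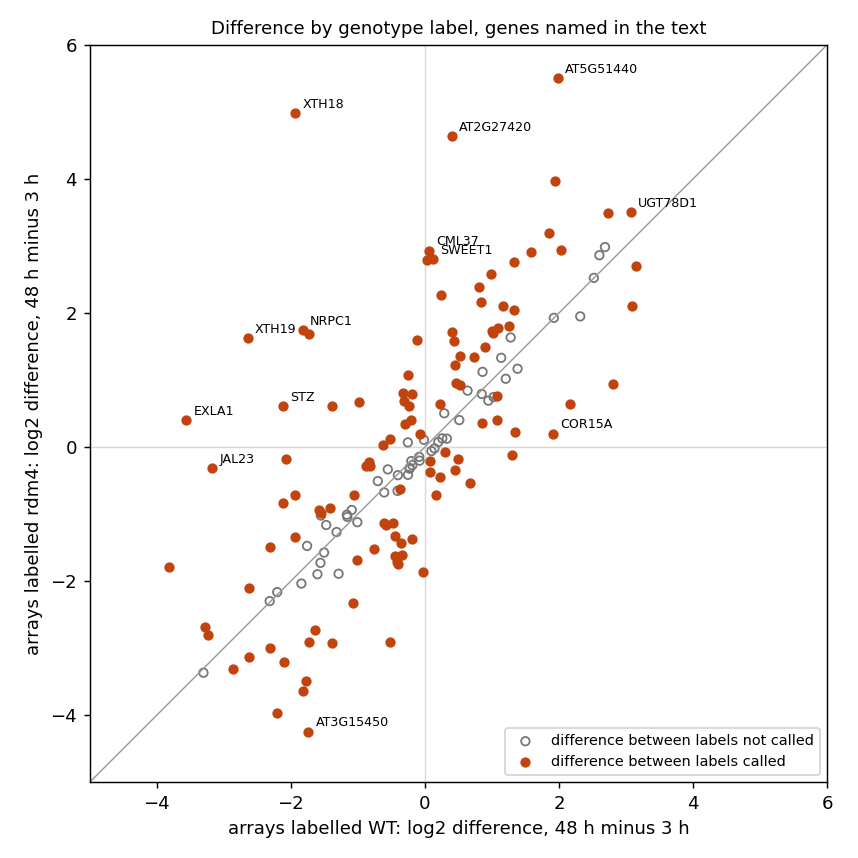
Difference in log2 signal, 48 h minus 3 h, on the arrays labelled rdm4 (y axis) and WT (x axis) for the genes named in the text, with filled points where the difference between labels was called and the grey diagonal where both would be equal. UGT78D1 lies at 3.5 for rdm4 and 3.07 for WT, while XTH18 lies at 4.97 for rdm4 and -1.94 for WT.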

How the data were processed

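The deposited table holds 1 column of log2 signals for each of 12 ATH1 arrays, taken as log2 from the range of the deposited values. The summarisation and normalization the authors used are not given in the sources used here. Of 22810 probe sets, 64 controls were left out and 22746 tested, of which 13513 name 1 gene, 503 several and 8730 none here. Of 13356 genes, 13286 matched RefSeq names. A model of 6 group means over 12 arrays was fitted in limma 3.58.1 (R 4.3.3), and p-values were adjusted by Benjamini-Hochberg over all probe sets. Named genes are the 12 largest non-overlapping rises and falls not dim at their brighter time, the 10 largest each way with a symbol, up to 4 called and 2 not called per list, and a set of single genes. The probe set with the highest mean stands for its gene. The genes and lists were chosen with earlier results of these data known, and role lists were made after values were seen. Of 1050 members of 32 gene lists, 155 were matched by name to a probe set with 1 gene and count as measured. The others may be on the array under a locus tag or on a probe set with no gene named here. The labels give replicates as from different growth chambers. Alternatives were array centring, quantile normalization, trended and robust variance, a filter on dim probe sets, chilled arrays only, no genotype term, a replicate block and leaving out each array. Results for 1 gene family and a marker list that holds its members are not reported here. The script was tested on simulated data. The number of arrays limits the precision.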

Additional observations from a re-analysis of the deposited data

Results flagged for a closer look

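In 23 genes the change between 3 h and 48 h differed between the genotype labels by an interaction test in limma and by more than 2-fold. They come from the 48 genes named by size over all genes or named singly, of which 36 had a called difference between labels. The share was 42.5% over all probe sets, and 1087 of the 1495 probe sets called with at least 2-fold in the mean. Each value is the 48 h minus 3 h difference on the rdm4 arrays minus that on the WT arrays, and all of them depend on the labels of the 3 h arrays, which NRPC1 puts in doubt. Their signs, their sizes and the split between positive and negative hold only as the arrays are labelled.

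The value was positive for 9 genes. It was 4.24 for AT2G27420, 3.56 for NRPC1, 3.52 for AT5G51440 and 2.74 for STZ. AT1G61500 had 2.04 and the chaperone gene Hsp70-2 had 2.03. Smaller values were found for Fes1A (1.43), AT1G51380 (1.34) and UGT84A1 (1.31).

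The value was negative for the other 14. It was -2.51 for AT3G15450, -1.87 for SWEET13, -1.82 for AT3G15440, -1.77 for AT2G15960 and -1.71 for AT5G61590. Among the cold-regulated genes it was -1.72 for COR15A, -1.41 for COR15B, -1.19 for COR27 and -1.12 for LTI30. The remaining values were -1.25 for LHCB4.2, -1.20 for GI, -1.19 for HIS1-3, -1.11 for AT5G16030 and -1.09 for BZIP34.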

How the results depend on the processing

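The count of 11779 called probe sets ran from 10917 to 11204 when each of the 8 chilled arrays was left out in turn. Called rises of at least 2-fold then numbered 754 to 762 and falls 731 to 758. The label-wise counts ran from 8737 to 10379 for WT and from 10283 to 11565 for rdm4, and the count of called label differences from 8518 to 9103. Where 1 array of a group was left, it was assumed to vary like the other groups. Leaving out the genotype term gave 6124 calls, since the spread between genotypes then enters the error. Centring each array on its median gave 12239 calls, 55.9% of them higher against 48.7% in the deposited scaling. Replicate numbers were shared by the groups, but the labels do not say that a number marks 1 chamber, and the deviations of same-numbered arrays correlated between -0.15 and 0.27 over 15 pairs of groups. They were therefore not treated as pairs, and a fit with the replicate block gave 11824 calls. None of 163 genes named in the text changed sign under the alternatives run for it, 15 each except for CML37, EXPA7, HEMA3 and JMT, which the filter on dim probe sets removed. Without the genotype term 32 of the genes were no longer called, among them COR27, COR15B, NAI2, SWEET1, STZ and XTH18. The small differences of AT5G17820, AT5G46630, ETFALPHA, GSA1, HEMA3, LHCB4.1 and NTRC also lost the call without single arrays. LHCB4.1 and AT5G17820 lost it under quantile normalization and median centring too, and AT5G17820 also with trended and robust variance. AT5G46630 lost it under median centring and GSA1 under quantile normalization. ORA47, AtRZ-1c and ATG8B gained the call under some alternatives.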

Other observations

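Other gene families were split between 48 h and 3 h. Of 29 serine carboxypeptidase-like genes, 8 rose, 5 fell and 16 were not called. Of 12 UBP genes, which encode ubiquitin-specific proteases, 7 rose, 2 fell and 3 were not called, with a median of 0.18. Of 5 tubulin TUB genes, 2 rose and 3 fell.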
